A study of Mus musculus with 6 samples.

Results

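The genes of the muscle acetylcholine receptor and the neuromuscular junction were followed in soleus (Sol) muscle of mice with and without an induced deletion of LSD1 in muscle. Taken by symbol from the count table, these were 10 of the 24411 genes listed: the receptor subunits Chrna1, Chrnb1, Chrnd, Chrne and Chrng, and Musk, Rapsn, Dok7, Ncam1 and Runx1. LSD1 is a histone demethylase encoded by Kdm1a. The series holds 3 WT and 3 LSD1-mKO male mice on a C57BL/6 background, with 1 library of poly(A) RNA per mouse. LSD1-mKO mice were Lsd1 flox/flox with an ACTA1-CreERT2 transgene. WT mice carried the floxed Lsd1 alleles without CreERT2. Both groups entered at 8 weeks of age and were housed singly with a running wheel for 38 days of voluntary wheel running (VWR). After 3 days to get used to the wheel, all mice, controls included, were given 75 mg/kg of tamoxifen on 5 days, and running was then recorded for 30 days. The human ACTA1 promoter drives Cre in differentiating and differentiated muscle cells, so nerve, Schwann cells and resting satellite cells of the same muscle were not its targets. Before the tissue was taken, the mice were fasted and had no access to the wheel. No sedentary mice are in the series, and the values below describe muscle after training and this fast only.

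As background, the muscle acetylcholine receptor is a ring of α, β and δ subunits with either ε or γ. The γ subunit belongs to fetal and denervated muscle and ε to the adult junction. Agrin from the nerve binds LRP4 and activates the kinase MuSK, and Dok-7 and rapsyn then gather receptors beneath the nerve ending. In innervated adult fibers these genes are transcribed mainly by the nuclei under the junction, and loss of the nerve switches many of them on along the fiber, which makes them readouts of innervation.

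The libraries held 8940206 to 10989846 estimated counts in WT and 10984664 to 13798059 in LSD1-mKO. The targeted gene Kdm1a fell to 42.6% of its WT mean in LSD1-mKO, with no overlap (edgeR adjusted p = 0.0160). Its log2 fold change stayed between -1.30 and -1.17 when 1 mouse was left out, but the edgeR adjusted p was then 0.116 if WT replicate 2 was missing, and 0.111, 0.143 and 0.209 if LSD1-mKO replicate 1, 2 or 3 was. Kdm1a overlaps Luzp1 on the opposite strand over 4241 bases, Luzp1 had 278 to 473 counts, and without a stated strand setting their reads cannot be told apart there. Slow fiber marker genes summed to between 32173 and 40012 counts per 1000000 (CPM, normalized by TMM) in WT and to between 34642 and 41943 in LSD1-mKO, and fast fiber marker genes, which include Myh2, to between 50148 and 73176 and between 50243 and 61819. Of the fast genes Actn3 had an unadjusted edgeR p of 0.0128 (adjusted 0.636, higher in LSD1-mKO, with overlap). The slow myosin gene Myh7 was at 13827 ± 1598 CPM (SD, n = 3) in WT. The defining motor neuron genes Chat, Slc5a7 and Slc18a3 were at 0 in all 6 libraries, while the 7 motor nerve genes, nearly all of it Stmn2, summed to 4.34 to 6.93 CPM in WT and to 6.15 to 13.0 in LSD1-mKO. WT replicate 1 was the library least like others of its genotype, and it held the lowest summed levels of the 6 leukocyte genes and of the 7 fibroblast and myotendinous junction genes, at 24.4 and 991 CPM, against up to 103 and 3008 in the other WT mice.

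None of the receptor and junction genes passed the test of a difference between the genotypes. The edgeR quasi-likelihood test, adjusted over all 12828 genes tested, called 0 of the 9 genes that passed its filter on low counts, and 0.0156% of all genes tested, 0.00780% higher and 0.00780% lower. At an unadjusted p under 0.05 the count was also 0 of 9, against 6.40% of all genes, and DESeq2 called 0 of the 9, against 0.327% of all genes. The ranges of WT and LSD1-mKO overlapped for all 10 genes, whereas 12.7% of the genes tested had ranges that did not (6.63% higher and 6.10% lower in LSD1-mKO). Of the 9, 3 were fitted higher and 6 lower in the knockout. Their median log2 fold change was -0.02, beside -0.02 over all genes tested. The summed level of all 10 genes was 238 to 281 CPM in WT and 242 to 276 CPM in LSD1-mKO. For 8 of the 9 the 95% interval of the fold change lay between a halving and a doubling. The exception was Musk, with a lower bound of 0.466-fold. The SD within genotypes exceeded the fitted change for 5 of the 9, and was the smaller of these for Chrnb1, Chrnd, Chrne and Rapsn. In RNA from whole muscle, fewer cells of a type and less RNA per cell cannot be told apart.

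**Figure D1:**
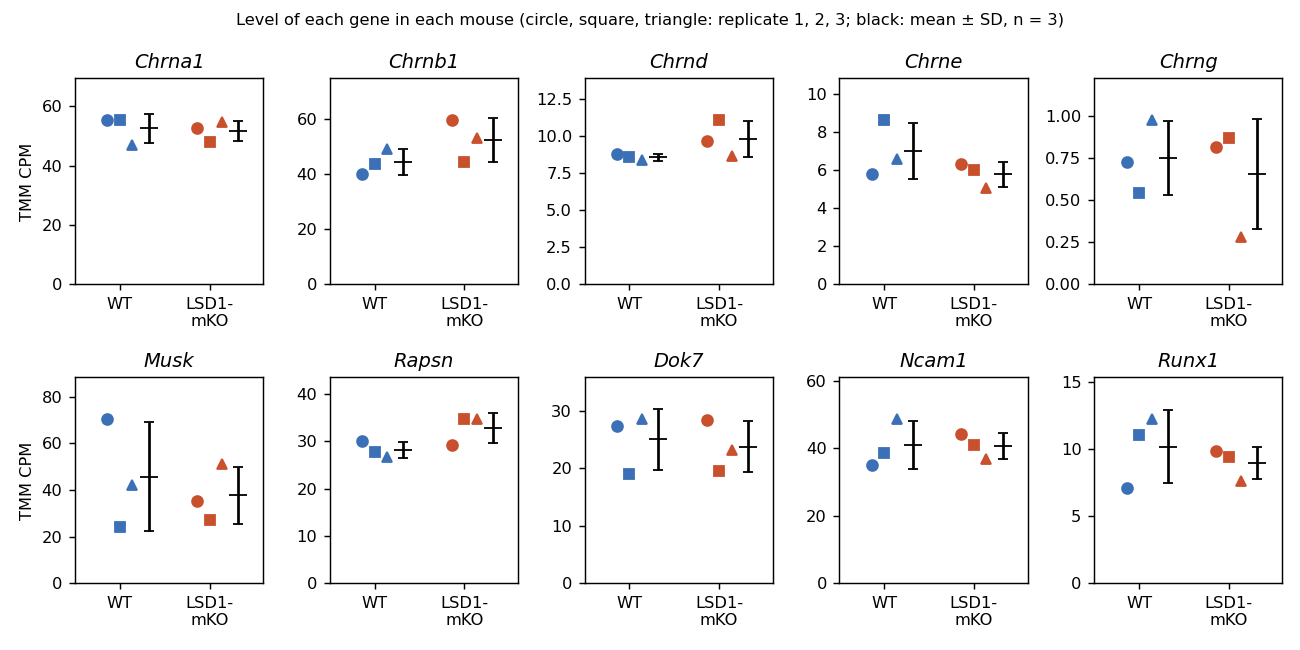
Level of each of the 10 genes in each mouse in TMM-normalized CPM (y axes start at 0 and differ between genes), with WT in blue and LSD1-mKO in red, replicates 1 to 3 as circle, square and triangle, and black bars for the mean ± SD (n = 3). The WT and LSD1-mKO points overlap in every panel, and Musk spans 24.3 to 70.6 CPM among WT mice.

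Chrna1, which encodes the α subunit that carries most of the acetylcholine binding site, lies at chr2:73563215-73580338 (GRCm38, minus strand). The stretch from 160 to 31 bases before its RefSeq start is shown beside those of the γ and ε subunits, because these are the fetal and adult partners whose balance reports on innervation. Each is 130 bases in GRCm38.p6, 5′ to 3′ on the gene's own strand, upstream of the RefSeq start and outside GENCODE exons, and capitals mark CAGCTG, one form of the E-box bound by myogenic factors, and CCGGAA, the N-box core bound by ETS factors. The stretches lie at chr2:73580369-73580498 (minus strand), chr1:87205651-87205780 (plus strand) and chr11:70619225-70619354 (minus strand). For Chrng the GENCODE gene span begins further upstream than this RefSeq start, so its stretch lies inside that span, between exons.
Chrna1: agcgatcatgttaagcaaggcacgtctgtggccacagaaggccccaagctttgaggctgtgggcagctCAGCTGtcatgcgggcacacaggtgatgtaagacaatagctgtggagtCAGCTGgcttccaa
Chrng: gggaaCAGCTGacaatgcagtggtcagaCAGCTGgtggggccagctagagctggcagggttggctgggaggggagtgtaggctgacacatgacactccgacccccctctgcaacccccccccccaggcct
Chrne: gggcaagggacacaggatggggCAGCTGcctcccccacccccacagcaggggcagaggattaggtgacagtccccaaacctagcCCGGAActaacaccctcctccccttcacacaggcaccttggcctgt

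Both strands of the 250 bases before each start were searched. The letters CAGCTG stood 92 and 44 bases before the RefSeq start of Chrna1 and 155 and 132 bases before that of Chrng, and 1.26% of the 32851 promoter windows held it at least 2 times. Chrne held 1 CAGCTG, 138 bases before its start, a feature of 13.0% of windows. Among the receptor genes with a window, a set without Chrnd, only Chrne also held CCGGAA, 76 bases before the start. These letters were found in 12.0% of windows. The kinase gene Musk held 1 CAGCTG, 68 bases before its start, and 1 of the windows of Runx1 held CCGGAA, 106 bases before. The general E-box CANNTG, which includes CAGCTG, occurred 3 times before each of Chrnb1, Chrna1, Chrng and Musk and in 1 window of Runx1. Of all windows, 66.2% held it at least 1 time and 31.8% at least 2 times. Windows were matched for 7 of the 10 genes, not for Chrnd, Rapsn and Ncam1. These letter matches are a description and were not linked to binding or to LSD1.

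Chrna1 was at nearly the same level in both genotypes. In the order of replicates 1 to 3, kept throughout, WT mice had 55.5, 55.5 and 46.9 CPM and LSD1-mKO mice 52.8, 48.1 and 54.7 CPM. All 3 LSD1-mKO values fell within the WT range. The mean was 52.6 ± 4.96 CPM (SD, n = 3) in WT and 51.8 ± 3.36 in LSD1-mKO. With edgeR the log2 fold change was -0.02 ± 0.10 (SE, adjusted p = 0.974). The 95% interval of the fold, 0.840 to 1.16, was the narrowest of the 4 subunits tested. Without WT replicate 1, WT replicate 2 or LSD1-mKO replicate 2 the fitted change was 0.02, 0.02 and 0.04, so its sign was not fixed by these mice.

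Chrnb1 encodes the β subunit (chr11:69784036-69795943, minus strand). Its CPM was 40.0, 43.7 and 49.1 in WT and 59.7, 44.2 and 53.1 in LSD1-mKO. The highest values were in LSD1-mKO replicates 1 and 3, and LSD1-mKO replicate 2 lay inside the WT range. The mean in LSD1-mKO came to 118% of that in WT, and the fold was 1.18 with an interval from 0.960 to 1.45 (edgeR adjusted p = 0.777).

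Chrnd encodes the δ subunit and lies at chr1:87190607-87200070 on the plus strand, 4586 bases upstream of Chrng. Its CPM was 8.80, 8.55 and 8.35 in WT, the tightest WT group of the receptor genes, and 9.69, 11.1 and 8.66 in LSD1-mKO. LSD1-mKO replicates 1 and 2 were above all WT mice, whereas replicate 3 was between them. The fold was 1.15, with an interval from 0.912 to 1.44 (edgeR adjusted p = 0.818).

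Chrne, the adult ε subunit (chr11:70614883-70619216, minus strand), had the largest fitted change of the 9 genes, which did not pass the test. WT mice had 5.79, 8.64 and 6.57 CPM and LSD1-mKO mice 6.29, 6.01 and 5.03 CPM. WT replicate 2 was the highest mouse, and the other values lay close together in both genotypes. The log2 fold change was -0.28 ± 0.20 (SE), or 0.824-fold with an interval from 0.599 to 1.13 (edgeR adjusted p = 0.814), and it was -0.10 without WT replicate 2. Chrne overlaps 4930544D05Rik on the opposite strand over 1043 bases. Whether counting used strand is not given in the sources used here, but that gene had only 1 to 6 counts in any library.

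Chrng, the fetal γ subunit (chr1:87204657-87212694, plus strand), was close to the detection limit in all mice. It had 6, 6 and 11 counts in the WT mice and 11, 12 and 3 in the LSD1-mKO mice, so it did not pass the expression filter and was not tested with the others. Exact 95% Poisson intervals were 2.20 to 13.1 counts for the WT mice with 6 counts and 0.619 to 8.77 counts for LSD1-mKO replicate 3, and these intervals cover counting error only. In CPM the means were 0.747 ± 0.219 (SD, n = 3) in WT and 0.654 ± 0.326 in LSD1-mKO, and the exact permutation test over the 20 splits of the 6 mice gave a 2-sided p of 0.7, where the smallest possible is 0.1. When no filter was applied, over 18840 genes, the log2 fold change was -0.14 with an interval from -1.30 to 1.02 (edgeR adjusted p = 0.975). The width of this interval takes in differences between mice as well as low counts, and the smallest detectable change was not computed.

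The balance of γ against ε lay with the adult subunit in all mice. Per transcript length, in transcripts per 1000000 (TPM), Chrng made up 6.77%, 3.51% and 7.95% of the sum of Chrng and Chrne in WT mice and 7.0%, 7.75% and 3.13% in LSD1-mKO mice. Chrne thus took nearly all of the pair in each library. The lowest and the highest shares came from different genotypes, and the groups overlapped. In counts, without division by length, the Chrng share was higher, from 5.26% to 12.9%.

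**Figure D2:**
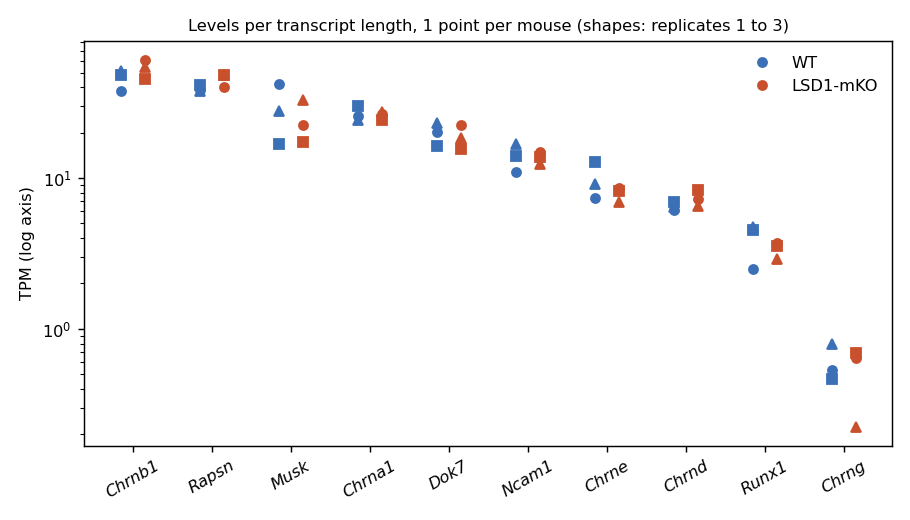
TPM of each gene (log axis) in each mouse, genes ordered by their mean over 6 mice, WT in blue, LSD1-mKO in red, shapes for replicates 1 to 3. Chrnb1 had the highest mean (49.7 TPM) and Chrng the lowest (0.557 TPM), and the WT and LSD1-mKO points interleave for all 10 genes.

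Levels between genes can be compared only per length, and the order by mean TPM over the 6 mice began with Chrnb1 at 49.7 and the receptor anchor Rapsn at 42.1. Musk at 26.6 and Chrna1 at 26.4 followed, then Dok7 at 19.3 and Ncam1 at 13.8. Chrne at 8.81, Chrnd at 6.90, Runx1 at 3.64 and Chrng at 0.557 TPM were lowest. Between neighbours in this order, the ranges over mice separated Chrna1 from Dok7, Chrnd from Runx1 and Runx1 from Chrng, and all other neighbours overlapped. Within single mice the order was firmer in places. Dok7 was above Ncam1 and Ncam1 above Chrne in 6 of 6 mice. Chrne was above Chrnd in 5, and Chrnb1 was above Rapsn in 4. The place of Chrne above Chrnd depends on the length used, 1616 bases for Chrne and 2949 for Chrnd. Without division by length their mean shares of the receptor subunits were 5.49% for Chrne and 7.90% for Chrnd. Musk was above Chrna1 in 3 of 6 mice, so these neighbours had no stable order.

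Of the summed TPM of the 5 receptor subunits, Chrnb1 made up 51.3% ± 4.07 (SD, n = 3) in WT and 56.0% ± 3.36 in LSD1-mKO. Chrna1 made up 30.0% ± 3.53 and 27.4% ± 1.74, although an assembled receptor holds more α than β subunits. The adult subunit Chrne made up 10.8% ± 1.89 and 8.30% ± 1.14, and Chrnd 7.27% ± 0.50 and 7.77% ± 1.56. Chrng was 0.672% ± 0.197 in WT and 0.550% ± 0.288 in LSD1-mKO. All 5 shares overlapped between the genotypes. The place of Chrna1 below Chrnb1 depends on the length used, since the longest Chrna1 coding transcript has 4386 bases and that of Chrnb1 2155, and in CPM the mean shares over 6 mice were 44.8% for Chrna1 and 41.2% for Chrnb1. The summed TPM was 77.8, 98.4 and 91.8 in WT and 104, 86.8 and 95.8 in LSD1-mKO, again with overlap.

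Musk, which encodes the receptor tyrosine kinase that starts receptor clustering, lies at chr4:58285960-58374303 on the plus strand. It was the least even of the 9 genes tested from mouse to mouse. WT mice had 70.6, 24.3 and 42.0 CPM and LSD1-mKO mice 35.1, 27.0 and 51.0 CPM. The highest WT mouse was at 2.91 times the lowest, and the highest LSD1-mKO mouse at 1.89 times the lowest. Its SD within genotypes was 0.63 on the log2 scale, and 2.88% of the genes tested had a larger one. The fold of LSD1-mKO over WT was 0.829, with an interval from 0.466 to 1.48 (edgeR adjusted p = 0.906). The direction rested on WT replicate 1: without it the log2 fold change turned from -0.27 to 0.18, and without WT replicate 2 it was -0.58. WT replicate 1, which was highest for Musk, was also the mouse with the lowest leukocyte and fibroblast gene sums given above, and the part of these in the Musk value was not tested.

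Rapsn encodes rapsyn, the protein that holds receptors in clusters, at chr2:91035620-91045729 on the plus strand. Its WT values were 30.1, 27.7 and 26.7 CPM and its LSD1-mKO values 29.3, 34.8 and 34.7 CPM. LSD1-mKO replicates 2 and 3 were above all WT mice and replicate 1 was below WT replicate 1. Of the 9 genes it had the smallest p with edgeR, but its adjusted p was 0.766 and it ranked 988 among the genes tested. The fold was 1.17, with an interval from 0.991 to 1.38. Rapsn overlaps Gm13778 on the opposite strand over 1638 bases. Gm13778 was not among the genes counted, so its level could not be checked.

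Dok7, the adaptor that activates MuSK from inside the fiber, lies at chr5:35056766-35087839 on the plus strand. It was at 27.4, 19.0 and 28.6 CPM in WT and at 28.3, 19.5 and 23.2 CPM in LSD1-mKO. Replicate 2 was the lowest mouse in each genotype, and the groups covered nearly the same range. The fold was 0.950, with an interval from 0.707 to 1.28 (edgeR adjusted p = 0.953), and its log2 value turned from -0.07 to 0.04 without WT replicate 3 and to 0.06 without LSD1-mKO replicate 2.

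Ncam1, an adhesion molecule that spreads over denervated fibers and is also made by satellite cells, nerve and Schwann cells, lies at chr9:49502136-49798925 on the minus strand. Its CPM was 35.1, 38.7 and 48.8 in WT and 44.2, 41.0 and 36.8 in LSD1-mKO, so all 3 LSD1-mKO mice fell within the WT range. The fold was 0.994, with an interval from 0.802 to 1.23 (edgeR adjusted p = 0.991). The log2 change was -0.01, and became 0.14 without WT replicate 3 and 0.06 without LSD1-mKO replicate 3. The 5 satellite cell genes summed to 80.0 to 149 CPM in WT and to 89.8 to 114 in LSD1-mKO, again with overlap. This sum was led by Sdc4, at 109, 40.4 and 79.9 CPM in WT. Pax7 of the same list had its lowest and highest WT values in the opposite mice, at 2.89, 5.76 and 3.02 CPM. In LSD1-mKO Pax7 had 5.47, 4.05 and 3.82 CPM. The Schwann cell genes summed to 146 to 162 CPM in WT and to 140 to 166 in LSD1-mKO. The part of these cells in the Ncam1 level was not tested. Gm11149, antisense to Ncam1, had at most 2.24 counts.

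Runx1, a transcription factor that denervated fibers switch on and that leukocytes also express, lies at chr16:92601466-92826149 on the minus strand. WT mice had 7.11, 11.1 and 12.3 CPM and LSD1-mKO mice 9.91, 9.41 and 7.64 CPM. WT replicate 1 was the lowest mouse, and the LSD1-mKO mice lay between it and the other WT mice. The fold was 0.878, with an interval from 0.625 to 1.23 (edgeR adjusted p = 0.890). Runx1 overlaps Gm26626 on the opposite strand over 7292 bases. Gm26626 was not among the genes counted, so its level could not be checked. The 6 leukocyte genes summed to 24.4, 103 and 82.2 CPM in WT and to 67.3, 29.1 and 40.4 CPM in LSD1-mKO. WT replicate 1 was thus lowest for both and WT replicates 2 and 3 highest for both, and the part of leukocytes in the Runx1 level was not tested.

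**Figure D3:**
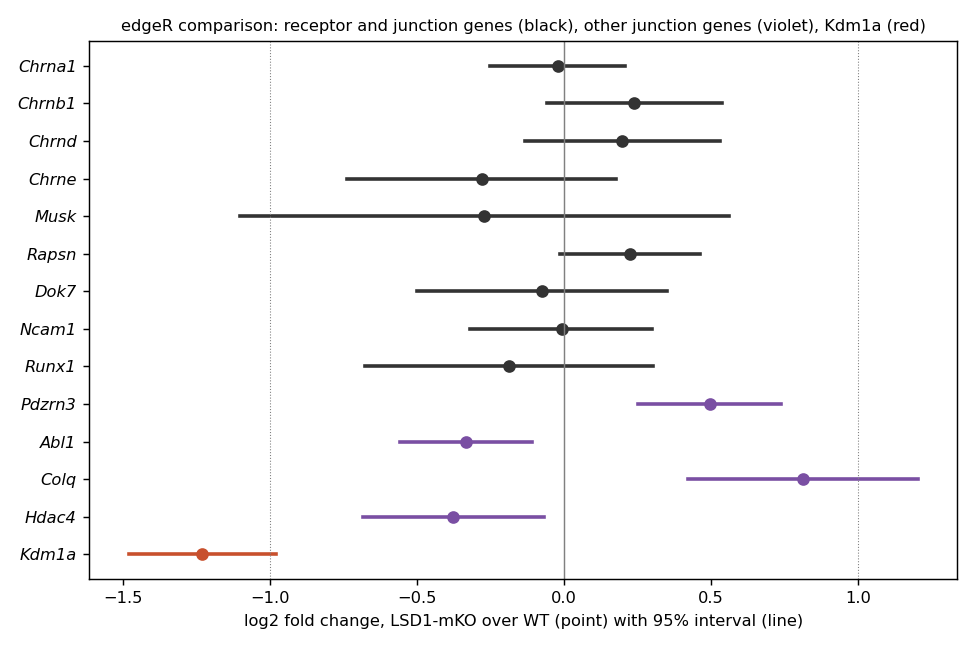
Log2 fold change of LSD1-mKO over WT (points) with its 95% interval (lines) from edgeR, for the 9 genes tested (black), 4 further junction genes at an unadjusted p under 0.05 (violet) and Kdm1a (red), with dotted lines at a halving and a doubling. All 9 black intervals include 0, and of these 9 only Musk passes a dotted line, whereas Kdm1a lies at -1.23.

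Across the 6 mice the genes did not move as 1 block. Over the 36 pairs among the 9 tested genes, Pearson's r of log2 CPM ran from -0.79 between Chrna1 and Ncam1 to 0.84 between Ncam1 and Runx1, with a median of -0.09 and 16 pairs above 0. Musk and Dok7, kinase and activator, had r = 0.67. These values are descriptions from 6 points that share their libraries. Among 60 other junction genes, the pattern most like that of Chrna1 was that of Scn4a, the muscle sodium channel (r = 0.92, Spearman's rho 0.83, 6 mice), followed by Plec, which encodes the linker plectin (r = 0.69, rho 0.77), and Nes, which encodes the filament protein nestin (r = 0.63, rho 0.60).

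The wider junction pathway was read from 6 lists with 72 genes, of which 60 were tested. None passed the adjusted threshold with edgeR. At an unadjusted p under 0.05, 2 were higher and 2 lower in LSD1-mKO, against 3.52% of all genes tested higher and 2.88% lower. The median log2 fold change over the 60 was -0.03, beside -0.02 over all genes. The ranges of the genotypes did not overlap for 4 of the 60 that were higher and 2 that were lower in LSD1-mKO. Over all genes tested these shares were 6.63% and 6.10%.

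The cleft and basal lamina list held the gene with the largest difference of these 4, Colq, which encodes the collagen tail that anchors acetylcholinesterase at the synapse. Colq was at 12.9, 15.1 and 11.4 CPM in WT and at 28.0, 19.2 and 22.0 CPM in LSD1-mKO, without overlap. The fold was 1.76, with an interval from 1.34 to 2.30, at an edgeR unadjusted p of 0.00129 and an adjusted p of 0.351, and a DESeq2 adjusted p of 0.0312. Its p was under 0.05 before adjustment in 6 of 6 fits that left out 1 mouse. The call therefore depends on the tool. Most of the list had the opposite sign: 11 of its 13 genes were fitted lower and the median log2 fold change was -0.16, where 7027 of all 12828 genes were fitted lower. The fibroblast and myotendinous junction genes (6 of 7 fitted lower, median -0.68) and the leukocyte genes (5 of 5, median -0.62) had the same sign, and their part in this list's values was not tested. Ache, the enzyme that this tail anchors, had 18.4 ± 3.14 CPM (SD, n = 3) in WT and 17.0 ± 2.69 in LSD1-mKO.

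In the list of agrin, LRP4 and MuSK signalling the call also depended on the tool for Pdzrn3, a ubiquitin ligase that acts on MuSK. WT mice had 130, 146 and 116 CPM and LSD1-mKO mice 179, 176 and 198 CPM, without overlap. The fold was 1.41, with an interval from 1.19 to 1.67, at an edgeR unadjusted p of 0.00143 and an adjusted p of 0.373, and a DESeq2 adjusted p of 0.0312. Abl1, a tyrosine kinase that takes part in receptor clustering, was at 65.1, 80.8 and 72.3 CPM in WT and at 56.4, 59.2 and 57.7 in LSD1-mKO, a fold of 0.794 with an interval from 0.680 to 0.926 and an edgeR adjusted p of 0.578. All LSD1-mKO mice were below all WT mice. The list as a whole had 10 of its 16 genes fitted higher, with a median log2 fold change of 0.03. Its namesakes Agrn and Lrp4 overlapped between genotypes.

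The denervation list holds genes that respond to loss of the nerve, most by rising and some, such as Dach2 and Hdac9, by falling, so its counts have no single meaning. It had 3 of 13 genes fitted higher and 10 lower, with a median of -0.11. Hdac4, a histone deacetylase that links denervation to receptor gene transcription, had 28.0, 25.4 and 27.6 CPM in WT and 17.2, 24.5 and 20.6 CPM in LSD1-mKO. No LSD1-mKO mouse reached the lowest WT mouse, with a fold of 0.770 and an interval from 0.622 to 0.953 (edgeR adjusted p = 0.701), and its unadjusted p was under 0.05 in 3 of 6 fits that left out 1 mouse. No list gene of the postsynaptic scaffold or of synapse-specific transcription had an unadjusted p under 0.05. In the first, Sntb2 (-0.35) and Macf1 (0.14) had the largest fitted log2 changes, and its median over 10 genes was 0.01. In the second, Erbb3 (0.21), which encodes a receptor for neuregulin, and Erbb2 (0.15) had the largest, and its median over 6 genes was 0.07. Of these 6 genes, 2 were higher in LSD1-mKO without overlap, where 6.63% of all genes tested were. They were Erbb3 (edgeR adjusted p = 0.817) and Gabpa (log2 fold change 0.08, edgeR adjusted p = 0.868).

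Most other nicotinic receptor subunits were scarce. Chrna10 was not, with 66 to 195 counts per library, beside 73 to 153 for Chrnd, without division by length. Of 11 listed, 2 passed the expression filter, and 2, Chrna3 and Chrnb4, were at 0 in every library. Chrna10 had 11.3, 11.3 and 5.86 CPM in WT and 7.25, 14.1 and 13.8 CPM in LSD1-mKO, with a log2 fold change of 0.31 (edgeR adjusted p = 0.877). Chrna2 had 4.46, 2.70 and 3.29 CPM in WT and 2.74, 4.63 and 5.12 CPM in LSD1-mKO, with a log2 fold change of 0.27 (edgeR adjusted p = 0.889). Both overlapped between genotypes.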

How the data were processed

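Poly(A) RNA from Sol muscle was read as 75-base single-end reads, which the authors aligned to mm10 with STAR. The authors deposited estimated counts per gene, 1 column per mouse, matched here by the number in each heading and not normalized. The counting tool, its annotation and its use of strand are not given in the sources used here. A deposited DESeq2 table of fold changes, errors and p-values was not used. Estimated counts were rounded and compared with edgeR 4.0.16 in R 4.3.3 (filterByExpr, TMM, quasi-likelihood, Benjamini-Hochberg over all genes tested, threshold 0.05). DESeq2 1.42.0 and limma 3.58.1 (voom) were alternatives, beside other normalizations and filters, a replicate block and each mouse left out. Counts of PCR products are not independent molecules. Intervals of 95% came from the edgeR standard error and degrees of freedom. TPM used the longest coding transcript in GENCODE for GRCm38, and genes holding 99.70% of the counts had one. The promoter windows are RefSeq's. The tests were tried on simulated data whose changes were larger than any fitted for the receptor and junction genes. Those trials therefore do not show how small a change could have been found. Same-numbered mice did not deviate together (r = -0.364, -0.0968 and -0.146), so numbers were not used as pairs. The genes and lists were chosen with earlier results of these data known. Besides the 10 genes and Kdm1a, those named are, per pathway list, up to 4 at an unadjusted p under 0.05, otherwise the 2 with the largest fitted change, up to 2 leading genes per marker list, and the 3 genes most like Chrna1. Ache, Agrn, Lrp4, Actn3, Dach2, Hdac9, Col22a1, Pax7, Gabpa and genes at or near 0 were named after their values were seen.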

Additional observations from a re-analysis of the deposited data

How the results depend on the processing

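No receptor or junction gene passed the adjusted threshold under any of the 14 alternatives, where the smallest adjusted p was 0.315, for Rapsn without WT replicate 1. Of 126 comparisons of a fold change with an alternative, 116 kept its direction. Leaving out 1 mouse moved the log2 fold change from -0.10 to 0.04 for Chrna1 (0.02 without WT replicate 1, 0.02 without WT replicate 2, 0.038 without LSD1-mKO replicate 2), from -0.58 to 0.18 for Musk (0.18 without WT replicate 1), from -0.24 to 0.06 for Dok7 (0.04 without WT replicate 3, 0.056 without LSD1-mKO replicate 2) and from -0.10 to 0.14 for Ncam1 (0.14 without WT replicate 3, 0.06 without LSD1-mKO replicate 3). Ncam1 was also 0.008 with no filter on low counts and 0.002 with the replicate block. The other ranges were 0.13 to 0.36 for Chrnb1, 0.11 to 0.28 for Chrnd, -0.39 to -0.10 for Chrne, 0.19 to 0.31 for Rapsn and -0.37 to -0.03 for Runx1. Unadjusted edgeR p was under 0.05 for Rapsn and Runx1 without WT replicate 1. It was so for Rapsn without LSD1-mKO replicate 1 and for Chrnb1 without LSD1-mKO replicate 2. At that threshold, 841 genes were higher and 1044 lower of 13079 tested without WT replicate 1. The counts were 451 and 503 of 12984 without LSD1-mKO replicate 1, and 439 and 289 of 13033 without LSD1-mKO replicate 2. With all mice they were 452 and 369 of 12828.

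Over all genes, the 1 gene higher and 1 lower with edgeR became 33 and 9 with DESeq2, 2 higher with voom, and 8 and 3 with no filter on low counts, where more genes were tested. The replicate block left 0 lower (Kdm1a at an adjusted p of 0.299) and changed no call of a receptor or junction gene. Without 1 mouse, 1 to 2 were higher (2 without WT replicate 1) and 0 to 1 lower. With DESeq2, 1 gene of the MuSK signalling list (Pdzrn3) and 1 of the cleft list (Colq) passed. The cause of these differences was not tested. Adjusted p over all alternatives ran from 0.0312 to 0.998 for both. Leaving out 1 mouse moved the log2 fold change of Chrna10 from 0.05 to 0.57, Chrna2 from 0.10 to 0.50, Macf1 from 0.02 to 0.23, Erbb2 from 0.06 to 0.27, Erbb3 from 0.11 to 0.29, Sntb2 from -0.59 to -0.18, Pdzrn3 from 0.42 to 0.59, Colq from 0.65 to 0.94, Abl1 from -0.40 to -0.25 and Hdac4 from -0.51 to -0.26. Shares of the receptor subunits without division by length were 44.8% for Chrna1, 41.2% for Chrnb1, 7.90% for Chrnd and 5.49% for Chrne. With 3 mice a group, the intervals given beside each gene show how closely its change was estimated. Chrng, at 3 to 12 counts, had too few to pass the expression filter.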

Other observations

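Chrna9, a subunit outside the muscle receptor, was chosen after its values were seen. It had 0 counts in all 3 WT mice and 7, 0 and 4 counts in LSD1-mKO replicates 1 to 3, too few for a test, and no fold is given. Myog, the denervation-linked transcription factor that binds E-boxes and was also picked after its values were seen, had 2.41, 7.20 and 7.11 CPM in WT and 8.36, 5.14 and 3.07 CPM in LSD1-mKO (edgeR adjusted p = 0.992). Its lowest mouse was WT replicate 1, as for Runx1.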
